A study of Mus musculus with 8 samples.

Results

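In mouse liver ductal cells placed in organoid culture, 17 protein-coding genes were well expressed in freshly sorted cells, low at 12 h and 24 h of culture, and well expressed again in organoids. They were selected on their measured values: the lowest of the 2 fresh and 2 organoid libraries had to reach 5 RPKM and be at least 2.5 times the highest of the 2 libraries at 12 h and the 1 at 24 h. RPKM counts the reads of a gene relative to its length and to the depth of the library. Of 4457 protein-coding genes that reached 5 RPKM in all 4 fresh and organoid libraries, called eligible here, these 17 were 0.381%. Loss and return describe how they were chosen, so the levels in those 7 libraries are given as a description, with no test. The library titled 48h played no part in the choice.

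Adult male C57/B6 mice with healthy livers gave the cells, which were sorted by EpCAM, an adhesion protein on the surface of bile duct epithelium. Fresh cells (2 libraries) were set against cells kept in Matrigel, a basement membrane gel, under organoid medium for 12 h (2 libraries), for 24 h (1 library) and for 6 days, when they are called organoids (2 libraries). A further library is titled 48h but labelled 24 h elsewhere, and it is named here by its title. All were low-input libraries made by Smart-seq2, which copies whole transcripts by PCR. The labels mention no transgene, no agent beyond the medium, and no age beyond adult, and they do not say whether replicates came from separate or pooled animals. P-values therefore speak only of how these libraries vary, and that variation may be technical.

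The bile duct epithelium lines the channels that carry bile out of the liver, modifies the bile, and forms a barrier between it and the tissue. When the liver is injured its cells can release chemokines that draw in immune cells, and some enter the cell cycle. In a laminin-rich gel with growth factors, single sorted duct cells can grow into hollow organoids lined by an epithelium. Surface receptors for laminin, tight-junction proteins and secreted defence factors are all part of the normal equipment of such an epithelium.

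Ptprc, which marks blood cells, was at most 0.0143 RPKM in any library. Yet of 18 immune markers, 7 and 6 reached 1 RPKM in the fresh libraries, and between 2 and 4 did so in each other library. Epcam itself stood between 513 and 1175 RPKM in all 8 libraries. Krt19, a keratin of duct cells, was less steady, at 1650 and 1062 RPKM in fresh cells, 1128 and 257 RPKM at 12 h, 162 RPKM at 24 h, 634 RPKM in the library titled 48h and 1920 and 1326 RPKM in organoids. It was thus low in the second 12 h and the 24 h library, as the members were, but not in the first 12 h library. The libraries corresponded to between 13833143 and 28468920 effective reads, so that 3 reads in a gene of 2 kb would give between 0.0527 and 0.108 RPKM. Such limits hold for counting error alone, because PCR copies of a molecule were not marked and cannot be set apart. Fresh libraries had 19279 and 21132 genes above 0, those at 12 h had 15632 and 16157, the one at 24 h had 13895, the one titled 48h had 16911, and organoids had 18496 and 19061. Genes of at least 1 RPKM numbered 10605 and 10661 at 12 h and 8814 at 24 h. They numbered 10926 and 10727 in fresh libraries, 11263 in the one titled 48h, and 10877 and 11098 in organoids. The libraries chosen as low were therefore also those with the fewest genes detected, though by the second count the 12 h libraries were only slightly lower. The part of lower capture in the low values was not tested. In bulk RNA, fewer cells of a type and less RNA per cell cannot be told apart.

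Promoters of 4 members are shown: Bcam, whose replicates were close together in every group, Ctsf and Zfp119a, which had the lowest levels of all members at 12 h and 24 h, and Sult1a1, whose window held the most motifs of the 4. Each sequence runs 5′ to 3′ on the gene's strand from 250 bases before to 50 bases after the RefSeq start (GRCm38.p6), and capitals mark every match to the motifs named after the sequences.
Bcam: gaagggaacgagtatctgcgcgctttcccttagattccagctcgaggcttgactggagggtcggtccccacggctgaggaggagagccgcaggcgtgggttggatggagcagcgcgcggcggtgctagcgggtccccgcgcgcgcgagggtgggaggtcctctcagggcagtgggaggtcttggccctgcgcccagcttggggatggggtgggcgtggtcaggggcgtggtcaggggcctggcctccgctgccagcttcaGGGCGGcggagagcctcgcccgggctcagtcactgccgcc
Ctsf: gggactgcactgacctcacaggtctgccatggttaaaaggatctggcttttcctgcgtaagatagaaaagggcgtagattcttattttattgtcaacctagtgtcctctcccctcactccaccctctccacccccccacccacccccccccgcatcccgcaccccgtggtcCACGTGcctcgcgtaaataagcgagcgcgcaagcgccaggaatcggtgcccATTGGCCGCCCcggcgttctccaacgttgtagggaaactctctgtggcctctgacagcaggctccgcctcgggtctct
Zfp119a: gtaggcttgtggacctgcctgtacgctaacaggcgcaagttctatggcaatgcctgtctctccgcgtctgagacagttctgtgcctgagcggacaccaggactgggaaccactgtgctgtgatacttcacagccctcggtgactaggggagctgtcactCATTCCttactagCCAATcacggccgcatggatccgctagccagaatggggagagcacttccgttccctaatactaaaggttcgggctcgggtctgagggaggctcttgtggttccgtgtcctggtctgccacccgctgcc
Sult1a1: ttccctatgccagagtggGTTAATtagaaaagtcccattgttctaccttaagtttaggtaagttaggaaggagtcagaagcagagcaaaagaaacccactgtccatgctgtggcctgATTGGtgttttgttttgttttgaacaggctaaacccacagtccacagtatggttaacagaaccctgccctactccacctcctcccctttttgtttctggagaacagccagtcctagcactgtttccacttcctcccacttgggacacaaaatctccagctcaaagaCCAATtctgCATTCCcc
They lie at chr7:19770483-19770782 on the minus strand (Bcam), chr19:4854915-4855214 on the plus strand (Ctsf), chr17:55878904-55879203 on the minus strand (Zfp119a) and chr7:126676369-126676668 on the minus strand (Sult1a1).

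GC content was 71.0% in the Bcam promoter, 59.7% in that of Ctsf, 58.0% in that of Zfp119a and 46.3% in that of Sult1a1. RefSeq promoters were matched for 10 of the 17 members, with a median GC content of 54.3%, against 61.3% over 3531 eligible genes. The motifs, searched on both strands, were the GC box (GGGCGG, bound by Sp1), the CCAAT box (CCAAT, bound by NF-Y), the TATA box (TATAAA), and short cores for E2F (TTCCCGC or TTGGCGC), ETS factors (CCGGAAG), CREB (TGACGTC), AP-1 (TGACTCA), NRF1 (GCATGCG), YY1 (AAGATGG), HNF1 (GTTAAT), TEAD factors (GGAATG), RBPJ (GTGGGAA) and the E-box (CACGTG). Capitals in Bcam mark a GC box. In Ctsf they mark an E-box and a CCAAT box that runs into a GC box. Zfp119a carries a TEAD core and a CCAAT box, and Sult1a1 an HNF1 core, a TEAD core and 2 CCAAT boxes.

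A GC box was present in 5 of the 10 member promoters, against 72.7% of eligible and 35.7% of all 32851 promoters. The CCAAT box was also in 5 of 10, against 42.2% of eligible and 37.4% of all promoters. The HNF1 core, a motif of liver and duct transcription factors, was in 2 of 10 (Smim6 and Sult1a1), against 5.07% of eligible and 7.1% of all promoters. A TEAD core was in 2 of 10, against 13.9% of eligible and 14.7% of all promoters. The TATA box (Ephx1), the E-box (Ctsf) and the RBPJ core (Rab9) were each in 1 of 10, against 8.41%, 13.4% and 7.11% of eligible promoters and 13.6%, 7.15% and 6.38% of all promoters. No match was found in the 10 windows for the cores of ETS, E2F, YY1, NRF1, CREB or AP-1, which were in 26%, 14.4%, 10.2%, 8.16%, 7.84% and 4.59% of eligible promoters and in 8.86%, 6.81%, 6.34%, 3.58%, 3.21% and 5.2% of all. With 10 windows these shares are a description, and no motif was shared by more than 5 of them.

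The chosen genes lie on 11 chromosomes and cover secreted factors, surface and junction proteins, enzymes of drug metabolism, and proteins of the endosome, lysosome and chaperone systems. None stands in the lists of related pathways that were looked at: 0 of the 163 eligible entries of 14 pathway lists (ductal identity and transport, cilium, Notch, Wnt, cholesterol and lipid synthesis, interferon, S phase, chromatin, receptor tyrosine kinases, junctions, lysosome and p53 targets) was a member, and likewise 0 of the 4 eligible entries of 5 lists of hepatocyte, stellate, endothelial, immune and mesothelial markers. With 0.381% of eligible genes chosen, a count of 0 among so few is near the background, and the lists are short samples of their themes. They do not hold Cldn8, Ctsf or Glipr1, members that belong to the junction, lysosome and p53 themes. The count of 0 therefore does not say that these themes are absent from the members. The ratio of the lowest fresh or organoid level to the highest level at 12 h and 24 h, called the dip ratio here, had a median of 3.84 over the members and was under 5 in 14 of them. Just inside the limit of 2.5 were Slc7a4 (2.55), Glipr1 (2.55), Rab9 (2.56) and Ephx1 (2.60). Just outside it were Csrp2 (2.45), Slc37a1 (2.44), Fah (2.43) and Pf4 (2.37). The mirror pattern, at least 5 RPKM at 12 h and 24 h and at least 2.5 times above every fresh and organoid library, was met by 7 of 5005 genes (0.14%).

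**Figure D1:**
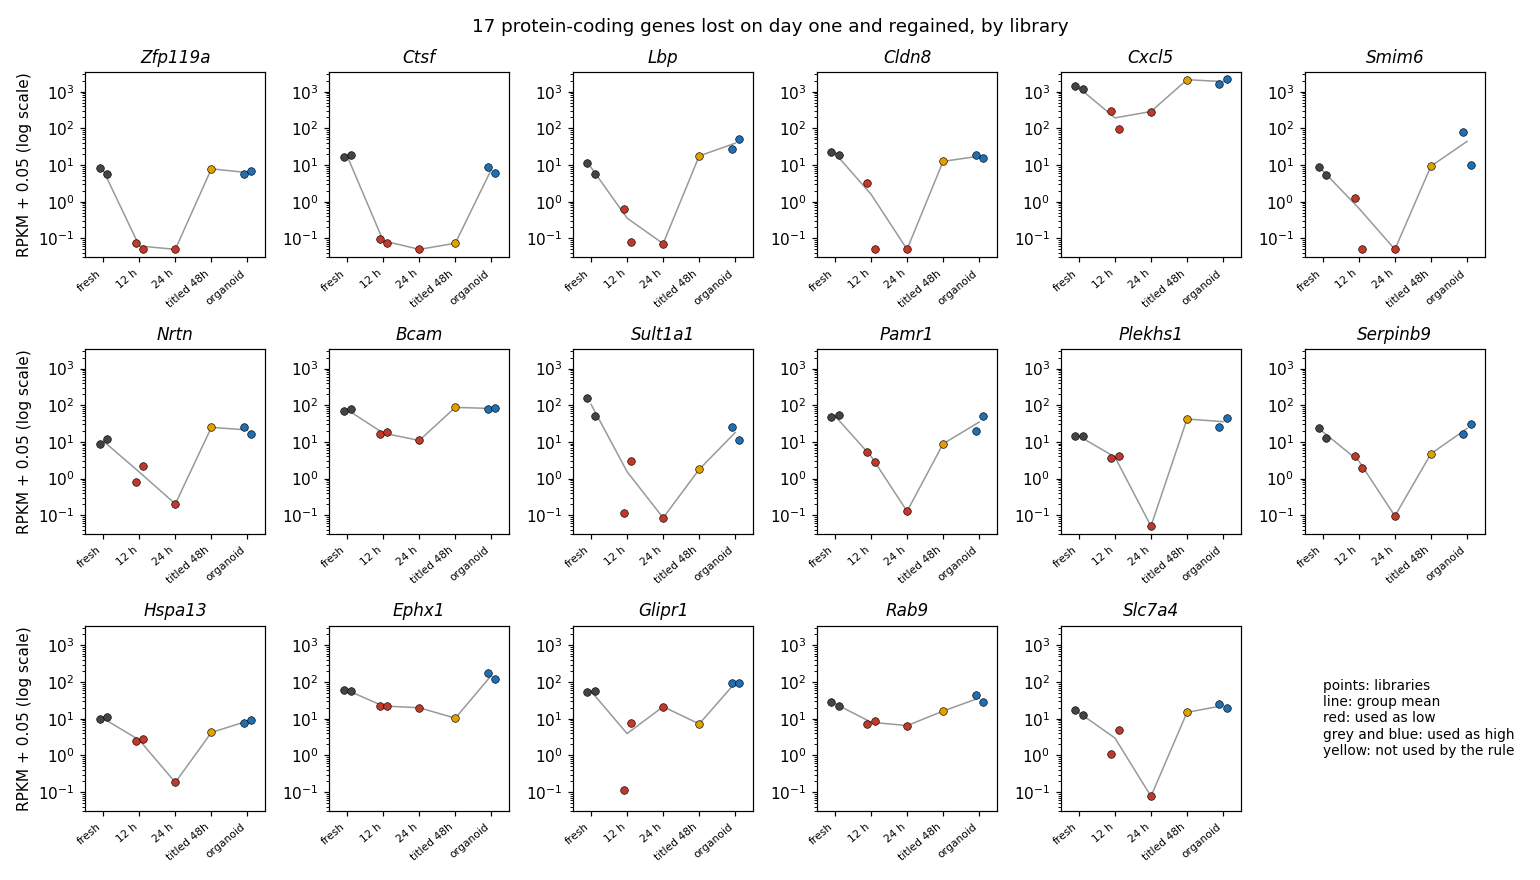
RPKM + 0.05 on a log axis for each of the 17 genes, with 1 point per library and lines through group means. Most genes reach their lowest point in the 24 h library, and the library titled 48h, in yellow, sits high for some genes (Plekhs1, Lbp) and low for others (Ctsf, Glipr1).

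**Figure D2:**
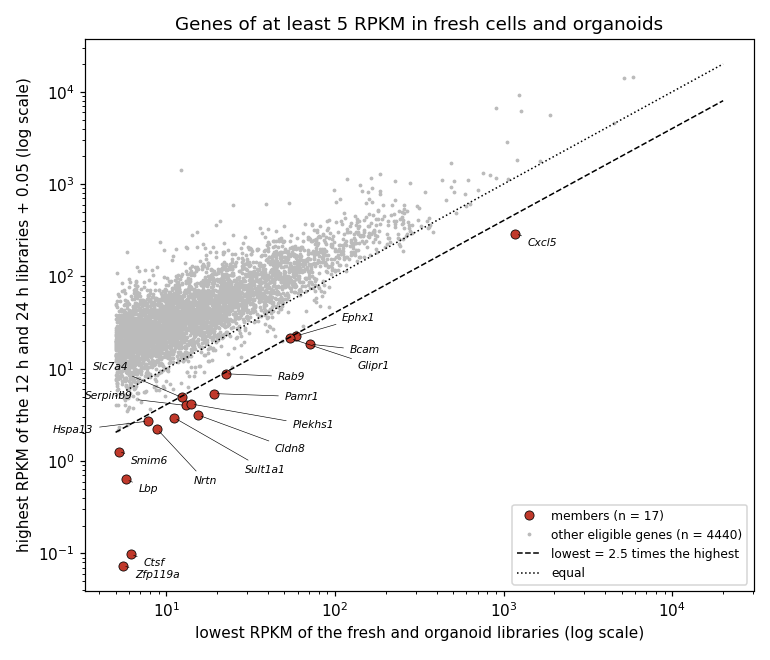
Highest RPKM at 12 h and 24 h plus 0.05 (vertical, log scale) against the lowest RPKM in fresh cells and organoids (horizontal, log scale) for 4457 eligible genes. The 17 members lie below the dashed line of the 2.5-fold limit, most of them close to it, with Zfp119a and Ctsf far below; the bulk of the genes lies above the dotted line of equal levels.

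Among the secreted factors, Cxcl5 was the most abundant member. It encodes a chemokine that attracts neutrophils through the receptor Cxcr2 (Cxcl5, ENSMUSG00000029371, chr5:90759360-90761624 on GRCm38). Its level was 1403 and 1172 RPKM in fresh cells, 290.4 and 98.0 RPKM at 12 h, 289 RPKM at 24 h, 2142 RPKM in the library titled 48h and 1586 and 2213 RPKM in organoids. The gene stayed abundant at its lowest, and the library titled 48h was as high as the organoids. Lbp (ENSMUSG00000016024, chr2:158306493-158332852), the plasma protein that hands bacterial endotoxin to Cd14, was at 11.4 and 5.77 RPKM in fresh cells, 0.583 and 0.0286 RPKM at 12 h, 0.0216 RPKM at 24 h, 17.7 RPKM in the library titled 48h and 27.9 and 51.1 RPKM in organoids. These Lbp values correspond to 837 and 794 reads in fresh cells, 59 and 3 reads at 12 h, 2 reads at 24 h, 1867 reads in the library titled 48h and 1866 and 4992 reads in organoids. Both organoid libraries lay above both fresh ones.

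Nrtn (ENSMUSG00000039481, chr17:56751325-56757530) encodes neurturin, a ligand of the GDNF family that signals through Gfra2 and Ret. It stood at 8.84 and 12.2 RPKM in fresh cells, 0.747 and 2.16 RPKM at 12 h, 0.153 RPKM at 24 h, 24.8 RPKM in the library titled 48h and 26 and 16.3 RPKM in organoids. Its relative Artn, the ligand artemin, was at 0.721 and 0.308 RPKM in organoids and at 3.22 and 2.35 RPKM in fresh cells, so the return was not seen in both ligands. Ret, the signalling receptor, was at most 3.31 RPKM in any library. Pamr1 (ENSMUSG00000027188, chr2:102550012-102643041), a secreted protein with a peptidase-like domain, was at 46.9 and 55.1 RPKM in fresh cells, 5.34 and 2.72 RPKM at 12 h, 0.0775 RPKM at 24 h, 8.82 RPKM in the library titled 48h and 19.2 and 50.1 RPKM in organoids. Its organoid libraries differed by more than 2.5-fold, and 1 of them was near the fresh level.

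Bcam encodes the Lutheran adhesion molecule, a receptor for the alpha 5 chain of laminin (ENSMUSG00000002980, chr7:19756131-19771016). Its levels were 70.9 and 80.9 RPKM in fresh cells, 16.3 and 18.4 RPKM at 12 h, 10.9 RPKM at 24 h, 87.4 RPKM in the library titled 48h and 77.9 and 85.6 RPKM in organoids. Replicates were close together in all 3 replicated groups, and fresh cells, organoids and the library titled 48h took 1 narrow range. Its ligand gene Lama5 was at 14.1 and 18.4 RPKM in fresh cells, 16.8 and 20.4 RPKM at 12 h, 26.4 RPKM at 24 h, 21.3 RPKM in the library titled 48h and 17.3 and 16.2 RPKM in organoids. Lama5 showed no dip, nor were the other 5 laminin receptor genes looked at (Itga3, Itga6, Itgb1, Itgb4 and Dag1) members, though all were eligible.

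Cldn8 (ENSMUSG00000050520, chr16:88560828-88563183) encodes claudin 8, a tight-junction strand protein best known from the kidney collecting duct. It was at 23.4 and 18.5 RPKM in fresh cells, 3.10 and 0 RPKM at 12 h, 0 RPKM at 24 h, 12.6 RPKM in the library titled 48h and 19.3 and 15.5 RPKM in organoids. The 12 h values stand for 153 and 0 reads, so the replicates at 12 h did not agree on whether the gene was detected. Slc7a4 (ENSMUSG00000022756, chr16:17572018-17583214) belongs to the cationic amino acid transporter family without a settled substrate. Its values were 16.8 and 12.3 RPKM in fresh cells, 1.01 and 4.85 RPKM at 12 h, 0.0262 RPKM at 24 h, 14.9 RPKM in the library titled 48h and 25.4 and 20.1 RPKM in organoids. Smim6 (ENSMUSG00000075420, chr11:115912017-115913920), a small integral membrane protein, was at 8.71 and 5.21 RPKM in fresh cells, 1.22 and 0 RPKM at 12 h, 0 RPKM at 24 h, 9.25 RPKM in the library titled 48h and 78.2 and 10.1 RPKM in organoids. The first organoid library stood far above the other.

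Glipr1 (ENSMUSG00000056888, chr10:111985448-112002631), a membrane protein of the CAP superfamily and a p53 target in mouse, had its lowest value at 12 h and not at 24 h. The levels were 54.3 and 58.2 RPKM in fresh cells, 0.0619 and 7.69 RPKM at 12 h, 21.3 RPKM at 24 h, 7.16 RPKM in the library titled 48h and 94.9 and 96.5 RPKM in organoids. The 12 h libraries held 2 and 258 reads of it, so that they differed far more from each other than the fresh or organoid pairs did. Plekhs1 (ENSMUSG00000035818, chr19:56461640-56486752), named for its pleckstrin homology domain, was at 14.1 and 14.6 RPKM in fresh cells, 3.54 and 4.10 RPKM at 12 h, 0 RPKM at 24 h, 42.0 RPKM in the library titled 48h and 25.6 and 45.8 RPKM in organoids. Its dip was thus deepest at 24 h, and the library titled 48h stood within the organoid range.

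Of the drug-metabolising enzymes, Sult1a1 (ENSMUSG00000030711, chr7:126672865-126676432), which sulfates phenols, was at 162 and 49.5 RPKM in fresh cells, 0.0634 and 2.90 RPKM at 12 h, 0.0346 RPKM at 24 h, 1.73 RPKM in the library titled 48h and 24.8 and 11.1 RPKM in organoids. Both organoid libraries lay below both fresh ones, and the fresh replicates differed by more than 2.5-fold, the only member for which they did. Ephx1 (ENSMUSG00000038776, chr1:180976210-181020904), the microsomal epoxide hydrolase, was at 61.0 and 58.8 RPKM in fresh cells, 22.6 and 21.9 RPKM at 12 h, 19.9 RPKM at 24 h, 10.3 RPKM in the library titled 48h and 178 and 125 RPKM in organoids. Its dip was shallow and its replicates close, and the organoid libraries were the highest. Its relative Ephx2, the soluble epoxide hydrolase, was lower in organoids than in fresh cells (log2 change −3.15, SE 0.63, adjusted p = 0.0314 by limma).

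Both enzymes and Lbp are also made by hepatocytes, and fresh sorted cells carried hepatocyte RNA. Summed over 20 hepatocyte markers, the level was 1430 and 1220 RPKM in fresh cells, 58.9 and 94.1 RPKM at 12 h, 98.7 RPKM at 24 h, 416 RPKM in the library titled 48h and 29.5 and 29.2 RPKM in organoids. Between 0 and 14 of the 20 markers were at 0 in a library, 14 and 12 of them in organoids, and Alb was at 0.0309 and 3.72 RPKM in organoids, against 488 and 660.1 RPKM in fresh cells. The marker sum was low in organoids. In the same libraries Lbp and Ephx1 were above their fresh levels and Sult1a1 was below its own. The part of hepatocyte RNA in the fresh levels of the members was not tested. The sum over 18 immune markers was 337 and 311 RPKM in fresh cells, 149 and 123 RPKM at 12 h, 20.8 RPKM at 24 h, 28.4 RPKM in the library titled 48h and 28.4 and 15.3 RPKM in organoids, with between 6 and 14 markers at 0.

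Markers of stellate cells and fibroblasts ran the other way in sum. The sum over 14 of them was 85.8 and 67.8 RPKM in fresh cells, 184 and 389 RPKM at 12 h, 443 RPKM at 24 h, 38.0 RPKM in the library titled 48h and 0.62 and 15.4 RPKM in organoids, with between 1 and 10 markers at 0. Nearly all of the sum at 12 h and 24 h came from Rgs5, a regulator of G-protein signalling found in pericytes, at 179 and 389 RPKM at 12 h and 438 RPKM at 24 h. The collagen genes Col1a1, Col1a2 and Col3a1, which define fibroblasts, were at 0 in those 3 libraries. Besides Rgs5, the genes of the list that reached 1 RPKM there were Dcn (2.27 RPKM) and Tagln (2.71 RPKM) in the first 12 h library and Vim (5.24 RPKM) at 24 h. The sum over 8 mesothelial markers, 1705 and 1119 RPKM in fresh cells, 1166 and 306 RPKM at 12 h, 299 RPKM at 24 h, 1053 RPKM in the library titled 48h and 2408 and 1801 RPKM in organoids, was mostly that of Krt19, which duct cells share, with between 0 and 6 markers at 0. Most of the rest in culture was Msln, at 37.9 and 48.5 RPKM at 12 h, 137 RPKM at 24 h and 413 RPKM in the library titled 48h. Msln was at 488 and 475 RPKM in organoids, against 29.3 and 21.4 RPKM in fresh cells. Apart from Krt19 and Msln, every mesothelial marker of the list was lower in organoids than in fresh cells. The sum over 14 endothelial markers stayed between 1.02 and 12.9 RPKM in all libraries. The part of these cell types in the members' levels was not tested.

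Ctsf (ENSMUSG00000083282, chr19:4855130-4860918), a cysteine protease of the lysosome, was at 16.7 and 18.8 RPKM in fresh cells, 0.0483 and 0.0233 RPKM at 12 h, 0 RPKM at 24 h, 0.0231 RPKM in the library titled 48h and 8.89 and 6.16 RPKM in organoids. It was at or near 0 in all 4 libraries between fresh cells and organoids. None of the 25 eligible genes of the lysosome and autophagy list, which does not hold Ctsf, was a member. Ctsc, the dipeptidyl peptidase cathepsin C, came near at 52.8 and 24.3 RPKM in fresh cells, 10.3 and 3.11 RPKM at 12 h, 0.0269 RPKM at 24 h, 18.5 RPKM in the library titled 48h and 31.5 and 36.9 RPKM in organoids.

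Rab9, a small GTPase for transport between late endosomes and the Golgi (ENSMUSG00000079316, chrX:166457253-166479867), was at 29.1 and 22.5 RPKM in fresh cells, 7.21 and 8.79 RPKM at 12 h, 6.43 RPKM at 24 h, 16.1 RPKM in the library titled 48h and 44.5 and 29.0 RPKM in organoids. Hspa13 (ENSMUSG00000032932, chr16:75745431-75767104), a microsomal member of the Hsp70 family, was at 9.50 and 10.8 RPKM in fresh cells, 2.48 and 2.66 RPKM at 12 h, 0.133 RPKM at 24 h, 4.17 RPKM in the library titled 48h and 7.76 and 9.34 RPKM in organoids. In both, the 12 h replicates were close and the library titled 48h lay between the low and the high levels. Serpinb9 (ENSMUSG00000045827, chr13:33003250-33017957), which inhibits granzyme B, was at 24.5 and 13 RPKM in fresh cells, 3.96 and 1.94 RPKM at 12 h, 0.0447 RPKM at 24 h, 4.71 RPKM in the library titled 48h and 16.0 and 30.2 RPKM in organoids. Its close relatives in the clade B serpin cluster may share reads with it.

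Zfp119a (ENSMUSG00000057835, chr17:55864892-55878930), a zinc finger protein of the KRAB type, had the widest dip. It was at 8.45 and 5.81 RPKM in fresh cells, 0.0237 and 0 RPKM at 12 h, 0 RPKM at 24 h, 7.83 RPKM in the library titled 48h and 5.52 and 6.84 RPKM in organoids. That came to 260 and 334 reads in fresh cells, 1 and 0 reads at 12 h, 0 reads at 24 h, 346 reads in the library titled 48h and 154 and 279 reads in organoids. Its neighbour and relative Zfp119b was at 1.30 and 1.10 RPKM in fresh cells, 0 and 2.61 RPKM at 12 h, 0.0240 RPKM at 24 h, 6.28 RPKM in the library titled 48h and 1.60 and 2.79 RPKM in organoids, with no common dip. How the authors' counting treated reads shared by the pair was not stated.

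Many members were nearly absent from single libraries. Values under 0.2 RPKM occurred in 4 of the 17 members in the first 12 h library (23.5%), against 0.426% of eligible genes, and in 5 of 17 in the second (29.4%), against 0.471%. In the 24 h library 12 of 17 members were under 0.2 RPKM (70.6%), against 4.08% of eligible genes, and 5 of the 17 were listed at 0. The 24 h library alone held the lowest of these 3 values in 12 members, each 12 h library alone held it in 1 (Glipr1 in the first, Cxcl5 in the second), and in Zfp119a, Cldn8 and Smim6 the second 12 h library and the 24 h library were both at 0. The 12 h replicates differed by at least 2.5-fold in 9 members, against 10% of eligible genes, the organoid replicates in 2, against 17.7%, and the fresh replicates in 1, against 1.37%. Members also had a shorter annotated exon length, merged over all exons of a gene. Its median was 2356 bases (quartiles 1749 and 4153), against 3588 bases (2377 and 5450) over eligible genes. Low values were a condition of membership, so these shares describe the members and do not test them.

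When each library was left out of the rule in turn, the genes chosen on the other 6 were looked up in the library left out. Without the first 12 h library 56 genes were chosen, and 17 of them (30.4%) were low in it, against 2.42% of eligible genes. Without the second 12 h library 36 were chosen and 17 (47.2%) were low in it, against 2.80%. Without the 24 h library 36 were chosen and 17 (47.2%) were low in it, against 9.18%. Leaving out a fresh library gave 19 and 29 genes, of which 89.5% and 58.6% were high in the library left out, against 3.04% and 3.16%. Leaving out an organoid library gave 40 and 38 genes, of which 42.5% and 44.7% were high in it, against 4.88% and 2.05%. In each case the share was above that of eligible genes, yet for the 12 h, 24 h and organoid libraries most of the genes chosen without a library did not meet the rule in it. The library left out was set against the same lowest or highest values that had chosen the genes. That alone raises their share above that of eligible genes, so the excess is a description and no independent sign of the pattern.

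The library titled 48h, which the rule did not use, divided the genes. It was at least 2.5 times the highest level at 12 h and 24 h in 9 of the 17 (52.9%), against 1.55% of eligible genes. These were Zfp119a, Lbp, Cldn8, Cxcl5, Smim6, Nrtn, Bcam, Plekhs1 and Slc7a4, and all of them but Cldn8 stood at or above their lowest fresh or organoid level (8 of 17, 47.1%, against 88.8% of eligible genes). In 5 genes, Ctsf, Sult1a1, Ephx1, Glipr1 and Serpinb9, it was at least 2.5 times below the lowest fresh or organoid level (29.4%, against 1.01%). Of these, Ctsf, Sult1a1, Ephx1 and Glipr1 were not above their highest level at 12 h and 24 h. Cldn8, Rab9, Hspa13 and Pamr1 lay between. The members were chosen for low values at 12 h and 24 h, which favours a higher value in any other library, so the first share is no independent sign of return. The other shares were set against the lowest fresh or organoid level, which the rule also used, so they too are only a description. With 1 library there is no replicate check, and whether it was taken at 24 h or 48 h cannot be told apart.

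**Figure D3:**
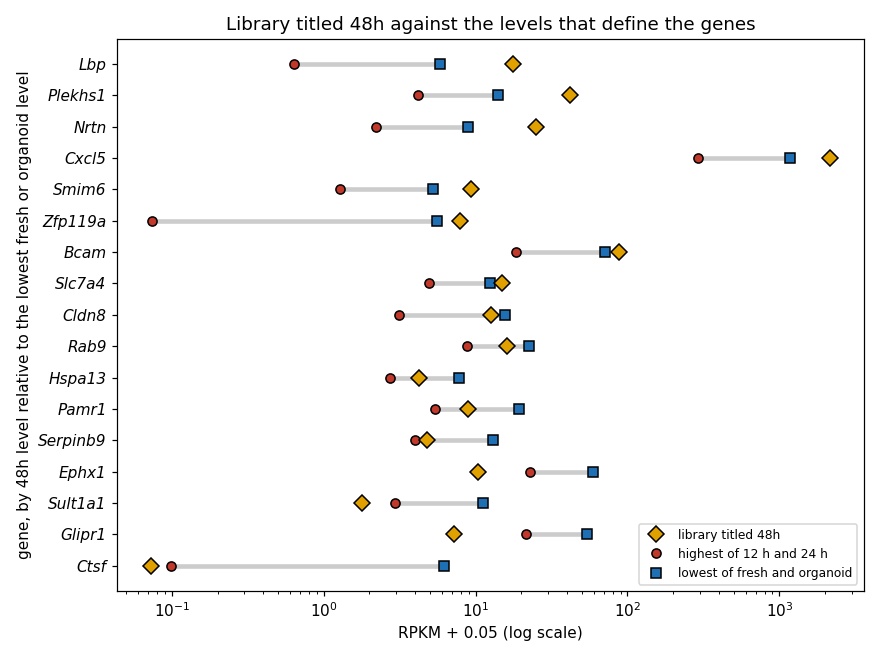
RPKM + 0.05 on a log axis for the library titled 48h (diamond), the highest 12 h or 24 h library (circle) and the lowest fresh or organoid library (square), with the genes ordered by the level in the library titled 48h over the lowest fresh or organoid level. The diamond lies to the right of the square in the 8 uppermost genes, from Lbp at 17.7 RPKM to Slc7a4 at 14.9 RPKM, and to the left of the circle in the 4 lowest.

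How far organoids returned to the fresh level was tested by limma over the 12900 genes that reached 1 RPKM in 2 or more libraries, on log2(RPKM + 1) with Benjamini-Hochberg adjustment. None of the 17 members passed an adjusted p of 0.05 (0 of 17), against 10.1% of all genes tested, of which 5.15% were higher in organoids and 4.94% lower (664 and 637 genes). That split depended on scaling: it was 557 and 836 genes with each library centred on its median, which moved the median log2 change of genes averaging 5 RPKM or more to 0.13, against 0.27 as fitted. All 17 passed the filter on low values. At an unadjusted p under 0.05 there were 5: Lbp (log2 change 2.09, SE 0.55, adjusted p = 0.0603), Ephx1 (1.30, SE 0.33, adjusted p = 0.0555), Plekhs1 (1.20, SE 0.43, adjusted p = 0.12), Ctsf (−1.15, SE 0.43, adjusted p = 0.133) and Sult1a1 (−2.36, SE 0.85, adjusted p = 0.123). The other 12 lay between −0.69 (Pamr1) and 1.93 (Smim6), with adjusted p between 0.231 and 0.847. A missed threshold does not show that the levels were equal: the intervals reached from −0.64 to 0.85 for Bcam and from −0.34 to 4.20 for Smim6. The rule asked for high values in both groups, which bears on how far they could differ. The error of the fit also pools the spread of the 12 h pair with those of the fresh and organoid pairs. The 12 h replicates differed by at least 2.5-fold in 9 members, against 10% of eligible genes, so that disagreement enters the members' errors and intervals. Glipr1, with close fresh and organoid pairs, had an SE of 0.89. With only the 4 fresh and organoid libraries fitted, 0 members and 1451 of all genes were called.

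Both organoid libraries stood above both fresh ones in 8 members (47.1%), against 42.3% of eligible genes, and below them in 3 (17.6%), against 21.9%. The 8 were Lbp, Smim6, Nrtn, Plekhs1, Ephx1, Glipr1, Cxcl5 and Slc7a4, and the 3 were Ctsf, Sult1a1 and Hspa13. Over all genes tested the 2 groups did not overlap in 64.7%. The members' counts were near those of eligible genes. The result rests on 2 libraries a group: without the second organoid library Ephx1 passed (adjusted p = 0.0383 by limma), and over all genes 0 calls were left without either fresh library and 117 without the first organoid library, against 1301 with all of them.

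**Figure D4:**
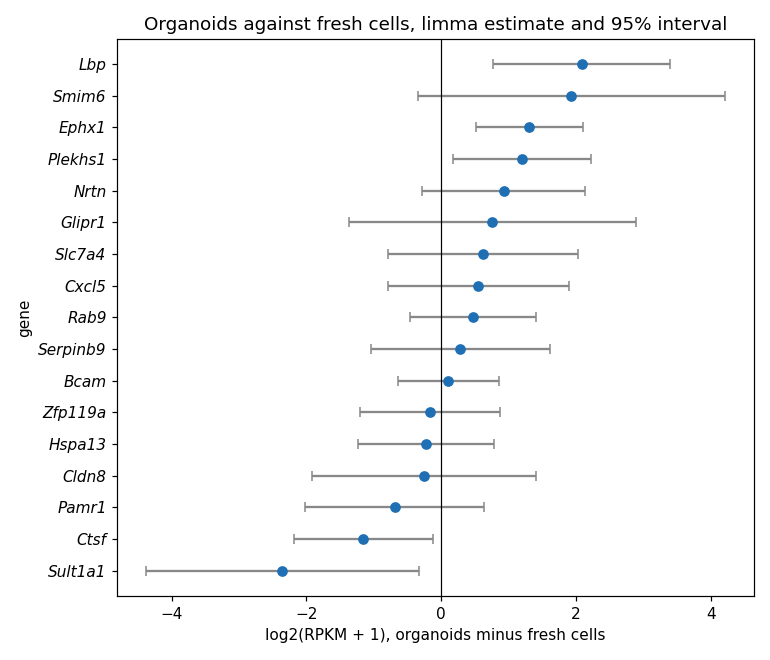
Estimated log2(RPKM + 1) difference, organoids minus fresh cells, for the 17 genes, with bars for the 95% interval of the limma fit (2 libraries in each group). The error of the fit also takes in the spread of the 12 h pair. Lbp, Ephx1 and Plekhs1 lie to the right of 0 and Ctsf and Sult1a1 to the left with intervals that leave 0 out before adjustment, and the other 12 intervals include 0.

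Relatives of the members, grouped by family after the members were known, were mostly outside the rule. In the chemokine cluster on chromosome 5, Cxcl1 was at 1957 and 2065 RPKM in fresh cells, 75.9 and 111 RPKM at 12 h, 109 RPKM at 24 h, 177 RPKM in the library titled 48h and 0.424 and 184 RPKM in organoids. Cxcl2, at chr5:90903871-90905938, was at 10.2 and 45.4 RPKM in organoids, against 1523 and 1373 RPKM in fresh cells (log2 change −5.98, SE 0.63, adjusted p = 0.00891 by limma). Cxcl3 was lower as well (−2.13, SE 0.50, adjusted p = 0.0451 by limma), while Cxcl1 did not pass (−6.95, SE 1.95, adjusted p = 0.0711 by limma) and its organoid libraries were far apart. These chemokines attract neutrophils like Cxcl5, and of this cluster only Pf4, the platelet factor of the same family at chr5:90772435-90773383, came near the rule. Pf4 was at 11.4 and 5.89 RPKM in fresh cells, 0 and 2.49 RPKM at 12 h, 0 RPKM at 24 h, 16.6 RPKM in the library titled 48h and 18.7 and 10.8 RPKM in organoids.

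Of the partners of Lbp in endotoxin recognition, Cd14 and Ly96 were lower in organoids and Tlr4 was not called. Cd14, the coreceptor that takes endotoxin from Lbp, was at 76.7 and 211 RPKM in organoids, against 661 and 716 RPKM in fresh cells (log2 change −2.43, SE 0.50, adjusted p = 0.0321 by limma). Ly96, the protein MD-2 that binds endotoxin on Tlr4, was at 11.9 and 17.2 RPKM in organoids, against 72.7 and 94.7 RPKM in fresh cells (−2.46, SE 0.36, adjusted p = 0.0155 by limma). The change of Tlr4, the signalling receptor, was within its error (−1.06, SE 0.91, adjusted p = 0.478 by limma).

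Of 14 claudins, 6 were eligible and Cldn8 alone was a member. Cldn4, a claudin of tight epithelia, was lower in organoids (−3.09, SE 0.54, adjusted p = 0.0224 by limma), Cldn10, which forms ion pores, was also lower (−1.67, SE 0.29, adjusted p = 0.0226 by limma), and Cldn2, which forms cation pores, was higher (3.73, SE 0.73, adjusted p = 0.0293 by limma). Among the Hsp70 genes, where 6 were eligible, the stress-induced Hspa1a (−4.59, SE 0.51, adjusted p = 0.00921 by limma) and Hspa1b (−2.45, SE 0.50, adjusted p = 0.0317 by limma) and the reticulum chaperone Hspa5 (−1.51, SE 0.33, adjusted p = 0.0394 by limma) were lower in organoids, and Hspa13 was not called. Of the cathepsins, Ctsd, the main aspartic protease of the lysosome (2.5, SE 0.49, adjusted p = 0.0296 by limma), and Ctsh, an aminopeptidase (2.76, SE 0.43, adjusted p = 0.0174 by limma), were higher in organoids. The arginine transporter Slc7a1 (−2.95, SE 0.41, adjusted p = 0.0139 by limma) and the large neutral amino acid transporter Slc7a5 (−1.82, SE 0.35, adjusted p = 0.0275 by limma) were lower.

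**Figure D5:**
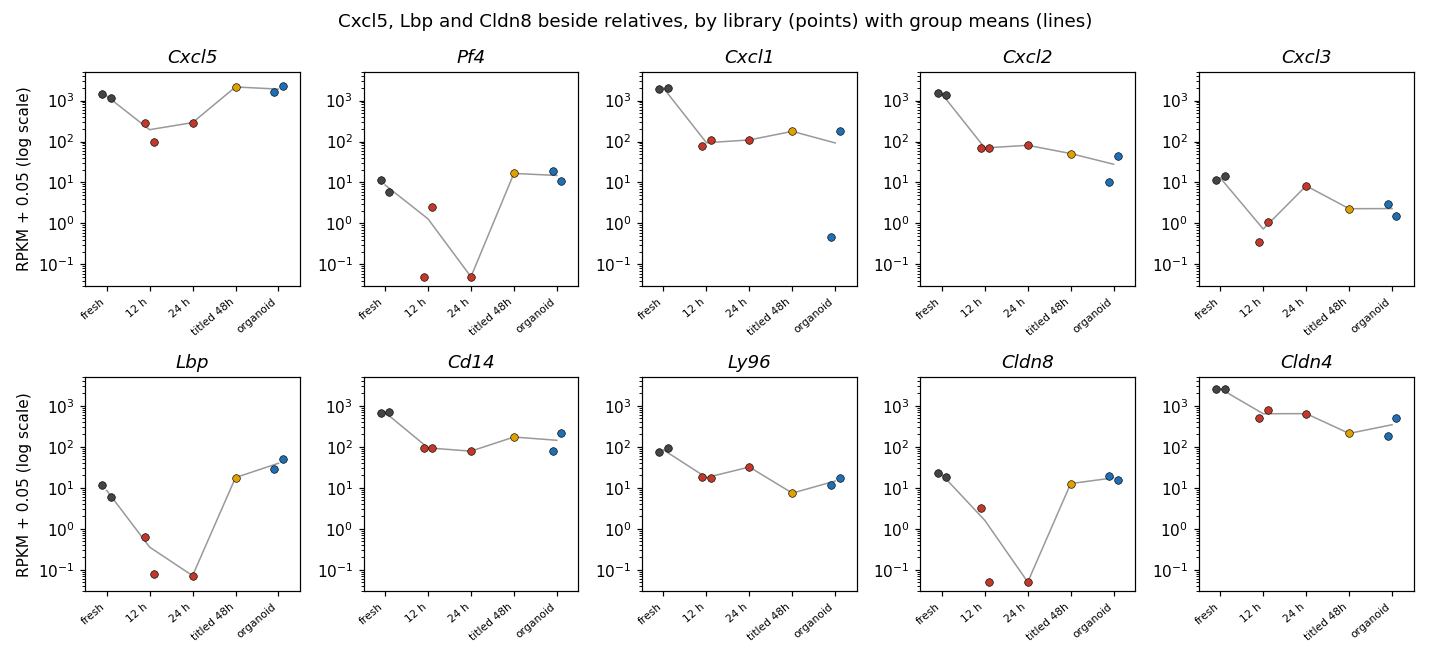
RPKM + 0.05 on a log axis by library (points) with group means (lines) for Cxcl5, Lbp and Cldn8 and for relatives in the same families. Cxcl5, Pf4, Lbp and Cldn8 come back in organoids, while Cxcl1, Cxcl2, Cxcl3, Cd14, Ly96 and Cldn4 stay below their fresh levels.

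In the lists used as background, the same comparison called 8 of 22 ductal transport genes, 10 of 25 interferon genes and 15 of 16 hepatocyte markers tested lower in organoids and none higher. Of 30 S phase genes tested, 7 were higher and none lower. The median log2 change was −1.13 for transport genes, −1.69 for interferon genes and 1.59 for S phase genes, against 0.48 for the members and 0.17 for all genes tested.

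Some members share their place in the genome with another gene, and the labels do not state whether the authors counted by strand. Smim6 lies wholly within Recql5, a DNA helicase gene on the opposite strand, over 1904 bases. Recql5 was at 1.15 and 1.44 RPKM in fresh cells, 3.79 and 5.67 RPKM at 12 h, 0 RPKM at 24 h, 5.84 RPKM in the library titled 48h and 1.36 and 3.71 RPKM in organoids. Both genes were at 0 RPKM at 24 h, while at 12 h Recql5 was above its fresh level and Smim6 below its own. The part of Recql5 reads in the Smim6 values was not tested. Glipr1 overlaps Krr1, a gene of ribosome assembly, by 2985 bases on the opposite strand, and Krr1 stayed between 3.76 and 8.62 RPKM in all libraries. Slc7a4 overlaps P2rx6, an ATP-gated channel gene, by 5783 bases, and P2rx6 was at most 0.87 RPKM. Sult1a1 overlaps Sgf29 by 61 bases.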

How the data were processed

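RNA of sorted cells was amplified by Smart-seq2 and tagmented with Nextera XT, per the labels' protocols. The authors deposited 1 table of RPKM values for 47729 Ensembl genes and 8 libraries; GRCm38 and edgeR are named in the submitters' processing notes. For the aligner, counter, annotation, strand setting and filters, nothing is given in the sources used here. GENCODE M21 named 47224 of the genes and left 505 unmatched. Between 88.6% and 92.1% of small values per library were whole multiples, within 0.01, of the value of 1 read, which gave the effective reads. The reads came out whole for 10 members.

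Members, lists and named genes (all members, the genes nearest the limit, and members of their families) were chosen with earlier results of these data known. limma 3.58.1 (R 4.3.3) fitted log2(RPKM + 1) with 5 group coefficients, trended moderated variances and two-sided Benjamini-Hochberg p-values over 12900 genes; folds on this scale understate changes of low genes. The contrasts the rule used were not tested. The fit was tested on simulated data, where it recovered most very large changes and no moderate ones. Fewer genes were changed there than the 1301 called in these data, which makes the adjusted threshold stricter. In these data some moderate changes passed, such as Hspa5 (log2 change −1.51) and Slc7a5 (−1.82). A missing call still says little. Alternatives covered the limits of the rule, scaling, filters, the pseudocount, each library left out and a replicate block. Promoters came from RefSeq (GRCm38.p6). Other tools were Python 3.11.15, pandas 2.3.3 and numpy 2.4.6.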

Additional observations from a re-analysis of the deposited data

How the results depend on the processing

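The number of chosen genes depended on the limits: 29 at a ratio of 2, 7 at a ratio of 4, 113 at a minimum of 1 RPKM and 11 at a minimum of 10 RPKM. With the library titled 48h added to the low libraries 5 genes were left, and with it added to the high libraries 9. Leaving out each library in turn gave 19 to 56 genes. Scaling libraries to 1 median gave 25 genes, including all 17, and quantile normalization gave 21, including 16 of the 17 but not Cxcl5. Without the 24h library, an alternative added after seeing the data, 23 of 36 genes were at least 2.5 times higher in the library titled 48h.

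In organoids against fresh cells, limma called 740 genes with no filter, and 0 to 1418 with each fresh, 12 h or organoid library left out. The split was 793 higher and 1009 lower with quantile normalization and 707 and 433 when tested genes had to average 5 RPKM. Of the members, 2 were called under that filter (Ephx1, adjusted p = 0.0487, and Lbp, 0.0464), 1 after centring (Lbp, 0.0474), 1 after quantile normalization (Lbp, 0.0427) and 0 to 1 with each of those libraries left out. Over all alternatives the adjusted p ranged from 0.0383 to 0.314 for Ephx1 and from 0.0427 to 0.42 for Lbp. With a replicate block, 1419 genes and 0 members were called. Deviations of same-numbered libraries correlated at 0.267 for fresh cells and organoids, 0.282 for fresh cells and 12 h, and 0.0238 for 12 h and organoids. These values do not settle whether the numbers pair the libraries, and the main fit treated them as unpaired. The causes were not tested. No estimate for Lbp, Ephx1, Plekhs1, Ctsf or Sult1a1 changed direction under these alternatives. With 2 libraries a group, and 1 in the others, small differences could not be detected and moderate ones could be missed.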
